A study of Mus musculus with 12 samples.

Results

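Glycolysis and hypoxia response genes were followed over 12 microarrays of cultured mouse cardiac fibroblasts. They comprise 17 listed glycolytic enzymes and 19 listed genes of the hypoxia-inducible factor (HIF) pathway, picked by gene symbol, with the probe set of the highest mean standing for each gene. Of the 36 listed genes, 34 were measured among 19505 genes, namely 15 of the 17 glycolytic enzymes and all 19 of the others, and each of the 34 had 1 probe set. Gpi1 and Eno1 were not analysed here.

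The cells came from hearts of wildtype C57BL/6J mice aged 1 to 7 days and were kept in culture for 10 to 14 days, by which time, per the labels, they had turned into myofibroblasts, the contractile and matrix-secreting form of the fibroblast. All groups shared this background and were compared after 8 h. One group of 3 arrays received both sCD74 at 40 nM and MIF at 8 nM (MIF is the cytokine macrophage migration inhibitory factor, and sCD74 the soluble outer part of its receptor CD74), 3 received MIF alone, 3 received sCD74 alone and 3 received the carrier. In the titles, arrays with the same replicate number share a code that looks like a date, here called date code 1, 2 or 3, and its meaning is not stated. Since no label says that replicates were separate animals or cultures, every p-value reflects the spread among these arrays alone, which may be technical.

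Glycolysis splits glucose into pyruvate in the cytosol and yields ATP without oxygen, and lactate dehydrogenase then turns pyruvate into lactate, which leaves the cell through monocarboxylate transporters. When oxygen is low, the prolyl hydroxylases that mark HIF-1α for degradation slow down, HIF-1α accumulates and pairs with ARNT, and the pair binds short motifs in the promoters of genes for glucose uptake, glycolysis, lactate export, blood vessel growth, mitophagy and collagen hydroxylation. In heart fibroblasts this programme is known for its link to collagen processing and scar formation.

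The deposited values are log2 expression levels, with array medians of 8.01 to 8.14. Signal over background was read as the median of the positive minus that of the negative control probe sets. It was smallest for sCD74 replicate 3 (3.67) and carrier replicate 1 (3.77), and 3.98 to 4.25 on the other 10 arrays. The mean of the negative control medians, 7.53, is the negative control level used below, and 8215 of 19505 genes averaged under it. All 9 fibroblast and myofibroblast markers measured lay above that level, as did all 13 macrophage, 9 of 10 endothelial (not Cldn5) and 7 of 10 cardiomyocyte markers (not Myh7, Myl7 and Nppa). Markers of cell types that the cultures' label does not name were thus read above it. Of all 19505 genes 11290 were too, so passing this level does not by itself show that a cell type was present.

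Of the glycolytic enzymes, Eno2, the neuronal form of enolase, was below the negative control level on all 12 arrays (3.95 to 4.57) and has no level that can be ordered. No difference is given for it and no separation between groups is read from it, though it stays in the counts and medians over the 15 enzymes. Ldhb, the heart-type lactate dehydrogenase subunit, was below that level on 5 arrays, and Aldoc, a brain-enriched aldolase, on 1. The other 31 members were above it on every array. Within a gene, the 12 arrays spanned between 0.27 (Mxi1) and 1.25 log2 units (Slc2a1, the glucose transporter GLUT1).

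This spread was divided between treatments and date codes by the sum of squares around each gene's mean, as a description. Noise alone gives the 4 groups a larger share than the 3 date codes. The share between groups and that between date codes are therefore not directly comparable, and a similar size does not show similar effects. For the other HIF pathway genes, a median of 54.9% of a gene's sum of squares lay between date codes and 16.2% between the 4 groups. For the glycolytic enzymes the medians were 26.4% between date codes and 27.7% between groups. Over all 19505 genes they were 28.5% and 19.2%, and over the 11290 genes above the negative control level 40.1% and 16.7%. At the far end, 92.3% of the sum of squares of Slc2a1 lay between date codes and 3.04% between groups.

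**Figure D1:**
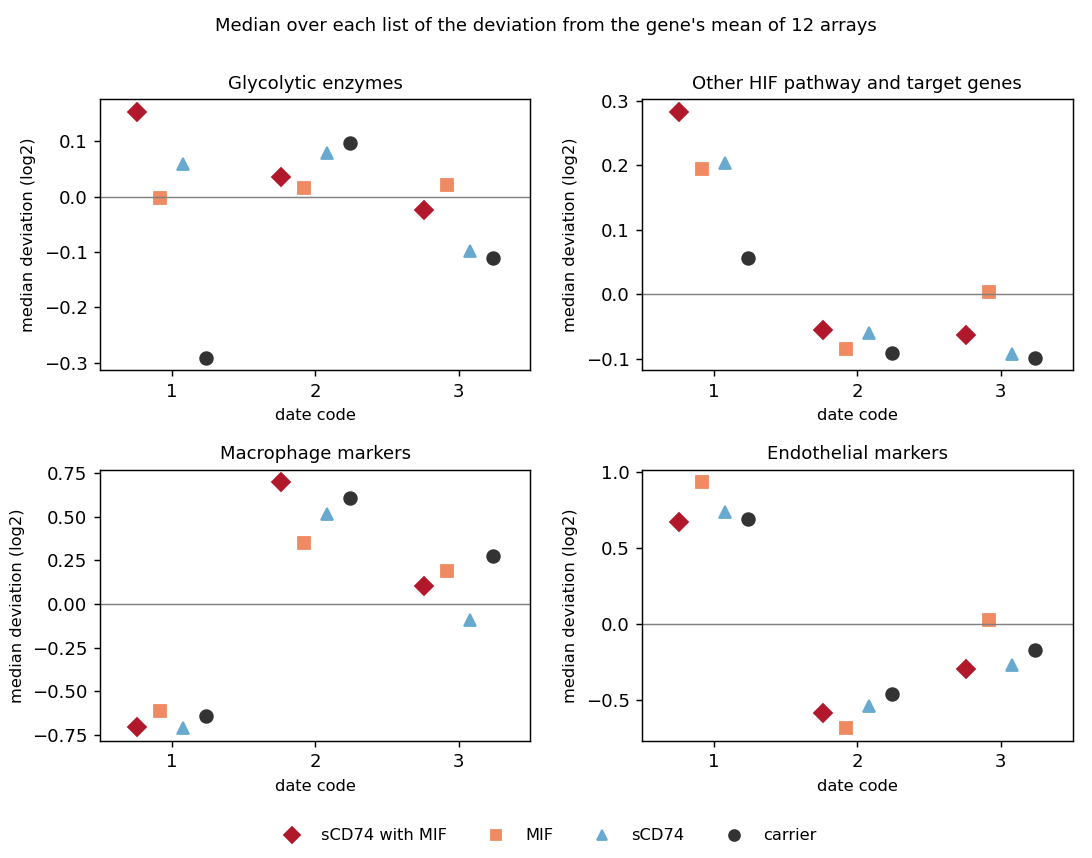
Median over a list of each gene's deviation from its own mean of 12 arrays (y axis, log2), for every array by date code (x axis), for the 15 glycolytic enzymes, the 19 other HIF pathway genes and the macrophage and endothelial markers. The other HIF pathway genes stand above 0 on the 4 arrays of date code 1 (0.06 to 0.28), while for the glycolytic enzymes the carrier array of date code 1 lies apart at -0.29.

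The co-treated arrays tested whether MIF and sCD74 together alter these genes. No gene passed the test: limma called 0 of 19505 genes (0%) against carrier at an adjusted p under 0.05, and so 0 of the 15 glycolytic enzymes and 0 of the 19 other HIF pathway genes. At an unadjusted p under 0.05 there were 1 glycolytic enzyme, Ldha, and 0 of the others, against 780 of all genes (4%). With the replicate number as a block, 0 genes were called, and at an unadjusted p under 0.05 there were Ldha and 4 of the others (Egln3, Pdk1, Bnip3 and Slc16a3, all higher with both proteins), against 1606 of all genes (8.23%). Over all genes the median difference from carrier was 0.00 (50.3% above 0). Over the tenth of genes with the highest means it was +0.02 (56.9% above 0). For the glycolytic enzymes the median was +0.18, with 13 of 15 above 0, and for the others +0.12, with 16 of 19 above 0. These medians differed between date codes: for the glycolytic enzymes they were +0.45, -0.10 and +0.14 in date codes 1, 2 and 3, and for the others +0.25, +0.05 and +0.08. The carrier array of date code 1, which had the second smallest control gap, enters the first value of each series, and without it the 2 medians over all date codes were +0.09 and +0.16. On leaving out any 1 array or date code they ranged from +0.03 to +0.31 and from +0.06 to +0.18.

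Ldha, whose product turns pyruvate into lactate, read 16.16, 15.95 and 15.99 with both proteins, 16.01, 15.89 and 15.92 with MIF, 16.04, 15.85 and 15.98 with sCD74, and 15.58, 15.78 and 15.91 with carrier. All 3 co-treated arrays lay above all 3 carrier arrays, and the lowest of the 12 values was the carrier array of date code 1. The co-treated mean was 16.03 ± 0.11 and the carrier mean 15.76 ± 0.17 (SD, n = 3 each), a difference of +0.27 ± 0.13 (SE) with an unadjusted p of 0.0481. Its adjusted p in limma was 0.999. Within date codes it was +0.58, +0.17 and +0.07, largest in date code 1.

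Tpi1, triose phosphate isomerase, read 14.37, 14.12 and 14.09 with both proteins, 13.90, 13.86 and 14.01 with MIF, 14.20, 14.19 and 13.41 with sCD74, and 13.67, 14.13 and 13.60 with carrier. Pkm, a pyruvate kinase gene, read 15.36, 15.31 and 15.50 with both proteins, 15.35, 15.23 and 15.33 with MIF, 15.20, 15.50 and 15.32 with sCD74, and 14.92, 15.34 and 15.21 with carrier. For both genes the co-treated and carrier ranges overlapped, since the carrier array of date code 2 exceeded the lowest co-treated array. Their differences were +0.39 ± 0.21 for Tpi1 and +0.23 ± 0.14 for Pkm, neither past the threshold (adjusted p = 0.999 for both in limma). Gapdh was the other glycolytic enzyme with co-treated arrays all above carrier, at 16.75, 16.68 and 16.52 with both proteins against 16.48, 16.48 and 16.43 with carrier. Such separation was seen for 2 glycolytic enzymes and for 1 of the other HIF pathway genes, Mxi1, against 882 of all genes (4.52%), and the opposite separation for 0 members, against 3.96% of all genes.

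Among the other HIF pathway genes, Egln3, a prolyl hydroxylase that is itself a HIF target, read 10.75, 10.06 and 10.53 with both proteins, 10.46, 10.04 and 10.41 with MIF, 10.34, 9.96 and 10.29 with sCD74, and 9.84, 10.10 and 10.15 with carrier. The 3 groups with protein and the carrier group overlapped, and the highest value was the co-treated array of date code 1. Its co-treated difference of +0.41 ± 0.19 missed the threshold (adjusted p = 0.999 in limma). Pdk1, the kinase that turns off pyruvate dehydrogenase, read 12.05, 11.72 and 11.45 with both proteins, 12.01, 11.46 and 11.60 with MIF, 11.80, 11.76 and 11.08 with sCD74, and 11.45, 11.53 and 11.21 with carrier. It was higher than the carrier array of its date code on all 3 co-treated arrays, by +0.61, +0.19 and +0.24, and its difference of +0.34 ± 0.22 was not called either.

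Pfkfb3, which makes the activator of phosphofructokinase, was the one of the 3 HIF pathway genes of smallest p that lay lower with both proteins, with values of 10.48, 10.72 and 10.72 with both proteins, 10.81, 10.67 and 10.90 with MIF, 10.66, 10.81 and 10.65 with sCD74, and 10.71, 10.95 and 10.79 with carrier. It was below the carrier array of the same date code each time, with differences of -0.24, -0.22 and -0.07, a mean of -0.18 ± 0.13 that missed the threshold. Car9, carbonic anhydrase IX, a classical marker of hypoxic cells, read 8.32, 8.41 and 7.94 with both proteins, 8.43, 8.54 and 8.38 with MIF, 8.45, 8.34 and 8.65 with sCD74, and 8.81, 8.24 and 8.29 with carrier. Its groups overlapped throughout, and its co-treated difference of -0.22 ± 0.17 was not called.

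**Figure D2:**
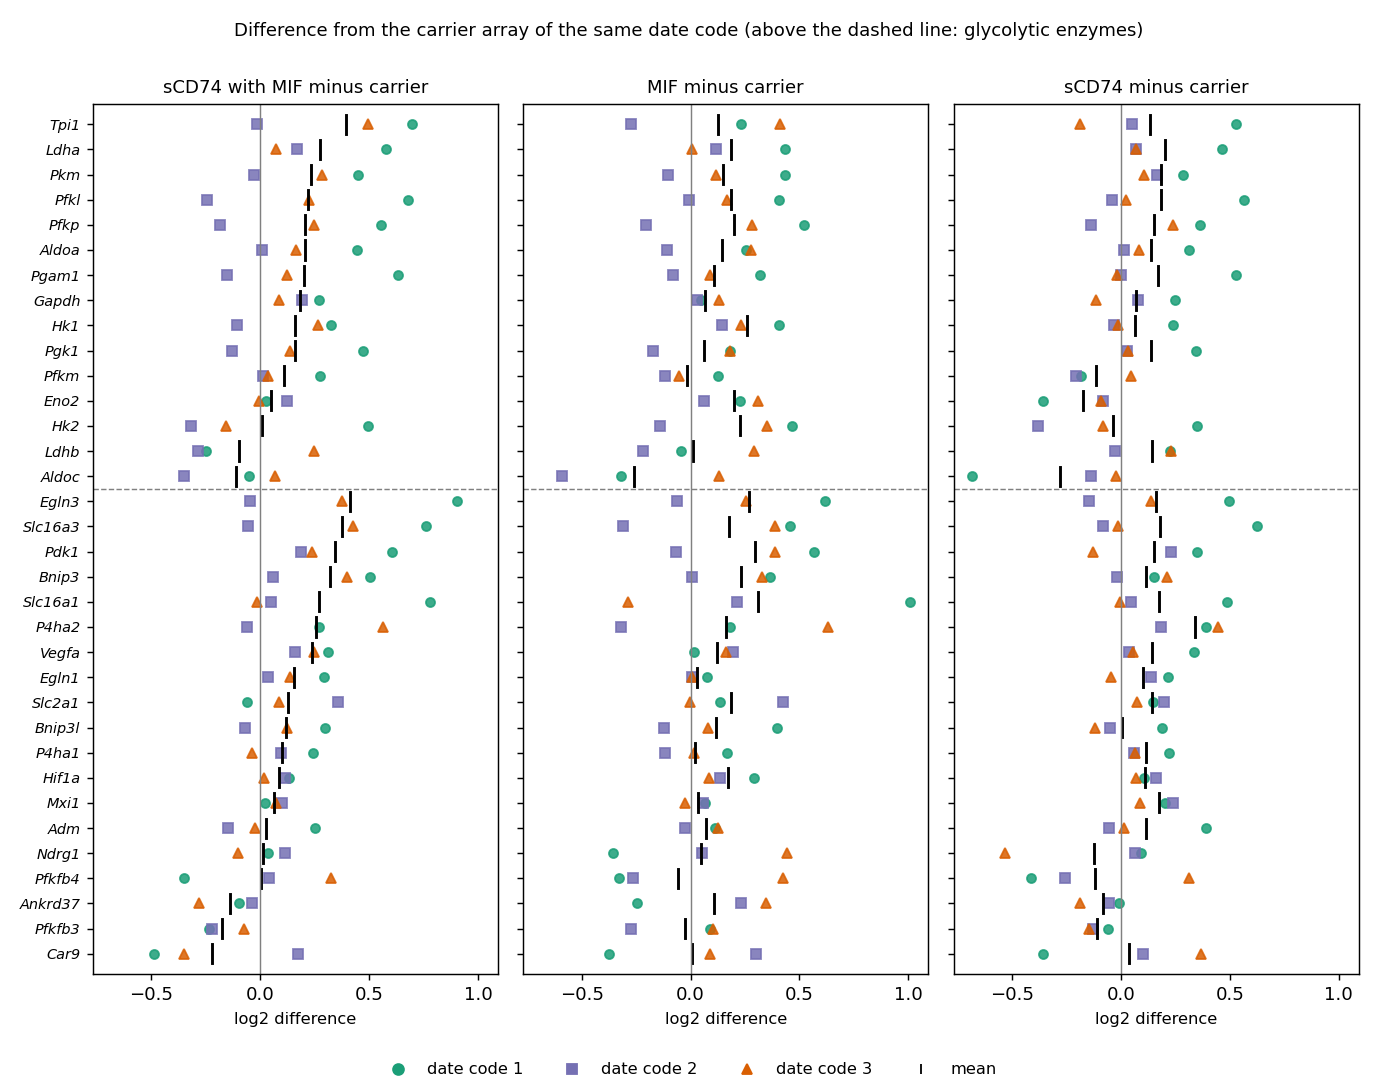
Difference of each member from the carrier array of the same date code (x axis, log2), in 3 panels for sCD74 with MIF, MIF and sCD74, with genes down the page and the mean of the 3 date codes as a bar. Date code 1 lies to the right of date codes 2 and 3 for most glycolytic enzymes, as for Ldha with both proteins (+0.58, +0.17 and +0.07), and none of the means passed the threshold.

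MIF alone also gave no call. In limma 0 of 19505 genes (0%) were called, with 0 members even at an unadjusted p under 0.05, against 653 of all genes (3.35%). With the block there was 1 such member, Hk1, against 1254 of all genes (6.43%), and again no call. Over all genes the median difference was +0.01 (52.7% above 0). It was +0.14 for the glycolytic enzymes (13 of 15 above 0) and +0.12 for the others (17 of 19 above 0). In date codes 1, 2 and 3 it was +0.25, -0.11 and +0.18 for the glycolytic enzymes and +0.14, 0.00 and +0.12 for the others. On leaving out any 1 array or date code the 2 medians ranged from +0.06 to +0.27 and from +0.02 to +0.19. The lowest value for the others was without the MIF array of date code 1. That for the glycolytic enzymes was without the carrier array of date code 1, which all comparisons with carrier share. Without that carrier array the median of the others was +0.18.

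Hk1, the broadly expressed hexokinase that traps glucose in the cell, read 13.29, 12.84 and 13.08 with both proteins, 13.38, 13.09 and 13.05 with MIF, 13.21, 12.91 and 12.80 with sCD74, and 12.97, 12.95 and 12.82 with carrier. All 3 MIF arrays lay above all 3 carrier arrays, and the difference of +0.26 ± 0.15 had an adjusted p of 1 in limma. Hk2, the inducible hexokinase, read 9.51, 9.28 and 9.24 with both proteins, 9.48, 9.46 and 9.75 with MIF, 9.37, 9.21 and 9.31 with sCD74, and 9.02, 9.59 and 9.39 with carrier. Its carrier arrays ranged more widely than its MIF arrays and overlapped them, and its MIF difference was +0.23 ± 0.16, also not called. Beside Hk1, Gapdh was wholly above carrier, as were 0 of the other HIF pathway genes, against 710 of all genes (3.64%), and 0 members were wholly below it, against 3.25% of all genes.

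Slc16a1, the lactate transporter MCT1, read 9.69, 9.85 and 9.83 with both proteins, 9.91, 10.01 and 9.55 with MIF, 9.39, 9.84 and 9.84 with sCD74, and 8.91, 9.80 and 9.84 with carrier. Its carrier array of date code 1 was the lowest of all, below the other 11 arrays, which ranged from 9.39 to 10.01. The MIF difference was +1.01 in date code 1, +0.21 in date code 2 and -0.29 in date code 3, with a mean of +0.31 ± 0.23. For Egln3 and Pdk1 the MIF differences were +0.27 ± 0.19 and +0.30 ± 0.22, with neither called.

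With sCD74 alone, limma called 0 of 19505 genes (0%), and 0 members had an unadjusted p under 0.05, against 350 of all genes (1.79%). With the block there was 1 such member, P4ha2, against 817 of all genes (4.19%), and no call. The median was +0.14 for the glycolytic enzymes (11 of 15 above 0) and +0.12 for the others (15 of 19 above 0). Date code 1 again gave the larger values, with +0.31, -0.03 and +0.02 for the glycolytic enzymes and +0.20, +0.04 and +0.05 for the others. On leaving out any 1 array or date code the glycolytic median ranged from -0.01 (without date code 1) to +0.21, and that of the others from 0.00 (without the sCD74 array of date code 1) to +0.18. Without the carrier array of date code 1 the glycolytic median was +0.07 and that of the others +0.18.

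Mxi1, a partner of MAX that opposes MYC, read 10.73, 10.81 and 10.78 with both proteins, 10.77, 10.77 and 10.68 with MIF, 10.91, 10.95 and 10.79 with sCD74, and 10.71, 10.71 and 10.70 with carrier. All sCD74 arrays and all co-treated arrays lay above all carrier arrays (10.71, 10.71 and 10.70), yet the sCD74 difference of +0.18 ± 0.11 was not called (adjusted p = 0.9999 in limma). Among the members above the negative control level Mxi1 was the sole one without overlap, against 489 of all genes higher (2.51%) and 528 lower (2.71%). P4ha2, a catalytic subunit of the collagen prolyl 4-hydroxylase, was higher than carrier with sCD74 in each date code, by +0.39, +0.18 and +0.44, with a mean of +0.34 ± 0.27. That SE is from the fit without the block and includes the spread between date codes. For Ldha, Pkm and Pfkfb3 the sCD74 differences were +0.20 ± 0.13, +0.19 ± 0.14 and -0.11 ± 0.13, none past the threshold.

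Pooling the 6 arrays with MIF against the 6 without it called 0 of 19505 genes (0%) in limma, and 0 members. At an unadjusted p under 0.05 there were 0 members above the negative control level, against 841 of all genes (4.31%). With the replicate number as a block, 1 gene was called (0.00513%), which is no member. At an unadjusted p under 0.05 there were then 3 other HIF pathway genes (Egln3, Pdk1 and Bnip3, all higher with MIF), against 1591 of all genes (8.16%). The count also holds 1 glycolytic enzyme, Eno2, which was below the negative control level and is not read. The MIF effect was +0.18 ± 0.11 for Hk1, +0.13 ± 0.09 for Ldha, +0.26 ± 0.13 for Egln3 and +0.24 ± 0.16 for Pdk1. Bnip3l, a mitophagy receptor also called NIX, stood at +0.12 ± 0.09, from 14.04, 14.03 and 14.10 with both proteins and 14.14, 13.98 and 14.06 with MIF, against 13.93, 14.05 and 13.86 with sCD74 and 13.74, 14.10 and 13.98 with carrier.

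Pooling the 6 arrays with sCD74 against the 6 without it called 0 of 19505 genes (0%), and before adjustment 0 members had a p under 0.05 in limma, against 457 of all genes (2.34%). With the block these counts were 0 members and 944 of all genes (4.84%). The sCD74 effect was +0.14 ± 0.09 for Ldha, +0.14 ± 0.10 for Pkm, -0.13 ± 0.09 for Pfkfb3 and +0.10 ± 0.07 for Mxi1. Ankrd37, an ankyrin repeat gene induced by HIF, stood at -0.17 ± 0.13, with 8.59, 8.18 and 8.28 with both proteins and 8.68, 8.16 and 8.37 with sCD74, against 8.44, 8.44 and 8.91 with MIF and 8.69, 8.21 and 8.56 with carrier. Its sign differed between date codes, +0.07, -0.16 and -0.41.

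The response to both proteins was also set against the sum of the single responses. This interaction was called for 0 of 19505 genes (0%) in limma, and at p under 0.05 before adjustment there were 0 members, against 363 of all genes (1.86%). With the block they were 0 members and 752 of all genes (3.86%). Over all genes 49.1% had an interaction above 0. The median interaction was -0.08 for the glycolytic enzymes, with 5 of 15 above 0, and -0.04 for the others, with 4 of 19 above 0. Neither sign was stable: on leaving out any 1 array or date code the 2 medians ranged from -0.18 to +0.01 and from -0.17 to +0.04, and without the 2 arrays of smallest control gap they were -0.02 and -0.26. The smallest p among the glycolytic enzymes belonged to Aldoc, Pfkm (the muscle-type phosphofructokinase) and Ldhb. Aldoc read 8.15, 8.26 and 8.06 with both proteins, 7.88, 8.02 and 8.13 with MIF, 7.52, 8.47 and 7.97 with sCD74, and 8.20, 8.61 and 8.00 with carrier, and Pfkm read 8.96, 9.20 and 8.83 with both proteins, 8.81, 9.06 and 8.74 with MIF, 8.50, 8.98 and 8.84 with sCD74, and 8.69, 9.19 and 8.79 with carrier. Their interactions were +0.43 ± 0.31 and +0.24 ± 0.25, both with an adjusted p of 1, and the groups overlapped for both genes. Among the others, Car9 stood at -0.26 ± 0.25, Mxi1 at -0.15 ± 0.15 and Hif1a at -0.20 ± 0.21.

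The second comparison set the arrays of date code 1 against those of date codes 2 and 3, within treatments. Here 8 of the 19 other HIF pathway genes were higher and 0 lower in date code 1 at an adjusted p under 0.05 in limma, against 1 of 15 glycolytic enzymes higher and 0 lower. On leaving out any 1 array the first count ranged from 4 to 10, with 4 without the co-treated or the sCD74 array of date code 1. Over all genes 7.03% were called higher and 9.39% lower, 16.4% in either direction. The shares were larger among well expressed genes. Of the 11290 genes above the negative control level, 1052 were called higher and 1711 lower. Of the 1951 genes in the tenth with the highest means, 274 were called higher and 297 lower. The 8 were the glucose transporter Slc2a1, the lactate exporter Slc16a3, the mitophagy receptor Bnip3, the collagen prolyl hydroxylase subunits P4ha1 and P4ha2, the secreted factors Adm and Vegfa, and Hif1a itself, and the glycolytic enzyme was Pgk1. Over all genes the median difference was +0.02 (55.1% above 0). It was +0.27 for the other HIF pathway genes, with 15 of 19 above 0, and +0.01 for the glycolytic enzymes, with 8 of 15 above 0. On leaving out any 1 array these medians ranged from +0.22 to +0.30 and from -0.04 to +0.08, so the glycolytic one has no stable sign. In all 4 treatments alike, 10 of the 19 were higher and 0 lower in date code 1, as were 2 and 2 of the 15 glycolytic enzymes, against 17.6% of all genes higher and 17.6% lower. Among the 11290 genes above the negative control level, 2277 were higher and 2997 lower in this way. In the tenth with the highest means, 610 of 1951 were higher and 544 lower.

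The promoters of the 4 HIF pathway genes with the smallest p in that comparison, and of Pgk1, are shown because these genes were called higher together. They are the 250 bases before the annotated gene start, read 5′ to 3′ on the gene's strand, from RefSeq on GRCm38.p6, and capitals mark the core of the HIF motif, ACGTG or GCGTG, on either strand (CACGT and CACGC when reversed). The motif CACGTG, bound by MYC and other E-box factors, holds ACGTG on both strands.
Slc2a1 (chr4:119108495-119108744, plus strand): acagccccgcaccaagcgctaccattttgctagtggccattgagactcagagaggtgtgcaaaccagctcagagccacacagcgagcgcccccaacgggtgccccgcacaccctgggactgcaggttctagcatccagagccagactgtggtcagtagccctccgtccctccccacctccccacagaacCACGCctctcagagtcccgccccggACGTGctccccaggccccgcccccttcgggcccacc
Slc16a3 (chr11:120948817-120949066, plus strand): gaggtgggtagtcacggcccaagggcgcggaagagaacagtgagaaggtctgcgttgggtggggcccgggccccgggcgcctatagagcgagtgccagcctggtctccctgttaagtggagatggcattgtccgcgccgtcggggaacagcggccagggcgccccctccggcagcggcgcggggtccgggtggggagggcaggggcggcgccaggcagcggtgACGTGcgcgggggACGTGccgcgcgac
Bnip3 (chr7:138909507-138909756, minus strand): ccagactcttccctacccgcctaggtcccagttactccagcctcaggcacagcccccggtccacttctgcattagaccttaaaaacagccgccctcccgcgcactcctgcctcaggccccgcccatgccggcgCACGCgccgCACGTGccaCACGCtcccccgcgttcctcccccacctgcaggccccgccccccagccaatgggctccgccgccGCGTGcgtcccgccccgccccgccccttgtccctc
P4ha2 (chr11:54100674-54100923, plus strand): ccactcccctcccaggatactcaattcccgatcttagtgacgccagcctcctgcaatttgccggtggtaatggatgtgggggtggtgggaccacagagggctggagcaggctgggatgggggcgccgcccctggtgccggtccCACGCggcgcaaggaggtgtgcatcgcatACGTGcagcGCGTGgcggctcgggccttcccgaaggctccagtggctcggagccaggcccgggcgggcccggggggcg
Pgk1 (chrX:106186850-106187099, plus strand): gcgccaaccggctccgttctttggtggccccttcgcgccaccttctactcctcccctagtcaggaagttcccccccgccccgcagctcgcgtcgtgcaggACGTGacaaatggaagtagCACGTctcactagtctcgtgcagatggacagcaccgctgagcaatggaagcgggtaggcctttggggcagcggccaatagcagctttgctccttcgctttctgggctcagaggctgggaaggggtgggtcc
In Slc2a1 the core stood 61 bases before the start as CACGC and 36 bases before it as ACGTG. Slc16a3 had ACGTG at 27 and 14 bases before the start, and Pgk1 had ACGTG at 150 and CACGT at 131 bases before it. Bnip3 had 5 matches, of which 2 overlap in a CACGTG, and P4ha2 had 3 before the start and a further ACGTG 10 bases after it.

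Over windows of 300 bases, 250 before to 50 after the start, 17 of 17 other HIF pathway genes with an entry and 13 of 15 glycolytic enzymes held at least 1 core, against 46.7% of all 27025 genes in the RefSeq table. Bnip3l and Ndrg1 had no entry. Since the members were listed as genes of the HIF pathway and glycolysis, a high share was likely from the start and is no result of these arrays. Promoters rich in G and C hold the core more often: 69.2% of the 9690 promoters of at least 60% GC had it, against 43.8% of all 32851. By gene, 70.9% of the 8543 genes with such a GC-rich promoter had the core in one. By promoter the share was 86.4% for the other HIF pathway genes, whose median GC content was 65.7%, and 75.0% for the glycolytic enzymes, whose median was 58.2%. The core was thus present both in genes that were called between date codes and in genes that were not.

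Within a date code, values are given in the order sCD74 with MIF, MIF, sCD74 and carrier. Slc2a1 read 14.59, 14.79, 14.80 and 14.65 in date code 1, against 13.90, 13.97, 13.74 and 13.55 in date code 2 and 14.44, 14.35, 14.43 and 14.36 in date code 3. The 3 sets did not overlap: date code 1 was highest, date code 3 between and date code 2 lowest. Means were 14.71 ± 0.10, 13.79 ± 0.19 and 14.39 ± 0.05 in date codes 1, 2 and 3 (SD, n = 4 each), and date code 1 exceeded the mean of date codes 2 and 3 by +0.61 ± 0.09 (adjusted p = 0.000603, limma). Slc16a3, the lactate exporter MCT4, read 11.21, 10.90, 11.07 and 10.45 in date code 1, against 10.32, 10.07, 10.30 and 10.38 in date code 2 and 10.50, 10.46, 10.06 and 10.08 in date code 3. The 3 protein-treated arrays of date code 1 lay above all other arrays, whereas its carrier array was below the co-treated and MIF arrays of date code 3. The difference was +0.64 ± 0.13 (adjusted p = 0.0044, limma). Slc16a1, the other lactate transporter among the members, stood at -0.35 ± 0.14 (adjusted p = 0.125, limma).

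Bnip3, which tags mitochondria for removal, read 11.48, 11.34, 11.13 and 10.98 in date code 1, against 10.90, 10.85, 10.82 and 10.84 in date code 2 and 10.75, 10.68, 10.56 and 10.35 in date code 3. Date code 1 lay above the other date codes on every array, by +0.51 ± 0.09 (adjusted p = 0.00161 in limma). The carrier array was the lowest of the 4 in date code 1. Bnip3l differed by -0.06 ± 0.09 and was not called.

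Collagen hydroxylation was represented by P4ha1 and P4ha2. P4ha2 read 11.57, 11.48, 11.69 and 11.30 in date code 1, against 10.94, 10.68, 11.18 and 11.00 in date code 2 and 11.03, 11.09, 10.90 and 10.46 in date code 3. The date code 1 arrays lay above all 8 others, and the difference was +0.60 ± 0.12 (adjusted p = 0.00383, limma). P4ha1 read 16.51, 16.43, 16.49 and 16.27 in date code 1, against 16.14, 15.93, 16.11 and 16.05 in date code 2 and 16.10, 16.15, 16.20 and 16.14 in date code 3. It too had no overlap between date code 1 and the rest, with a difference of +0.32 ± 0.08 (adjusted p = 0.0174, limma).

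Adm, the vasodilator peptide adrenomedullin, read 15.36, 15.22, 15.50 and 15.11 in date code 1, against 14.82, 14.94, 14.91 and 14.97 in date code 2 and 14.82, 14.97, 14.86 and 14.84 in date code 3. Vegfa, the endothelial growth factor, read 15.30, 15.01, 15.33 and 14.99 in date code 1, against 14.73, 14.76, 14.60 and 14.57 in date code 2 and 15.07, 14.98, 14.87 and 14.82 in date code 3. For Adm the arrays of date code 1 were all above the rest, whereas for Vegfa the co-treated array of date code 3 passed the 2 lowest arrays of date code 1. The differences were +0.41 ± 0.09 for Adm (adjusted p = 0.00878) and +0.35 ± 0.09 for Vegfa (adjusted p = 0.0164) in limma.

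Hif1a, the oxygen-regulated subunit, read 15.69, 15.85, 15.67 and 15.56 in date code 1, against 15.38, 15.40, 15.43 and 15.27 in date code 2 and 15.45, 15.52, 15.50 and 15.44 in date code 3. Date code 1 was above the others on every array, by +0.27 ± 0.08 (adjusted p = 0.0333, limma). The call for Hif1a was lost on leaving out any 1 of 11 of the 12 arrays (adjusted p up to 0.119), the exception being carrier replicate 3. The calls for P4ha1, Vegfa and Adm were lost without 3, 2 and 2 single arrays of date code 1, with an adjusted p of up to 0.0986, while those for Slc2a1, Slc16a3, Bnip3 and P4ha2 held under all alternatives run. Without the 2 arrays of smallest control gap, a setting chosen after seeing the data, 6 of the 19 were called, with Vegfa and Hif1a lost.

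**Figure D3:**
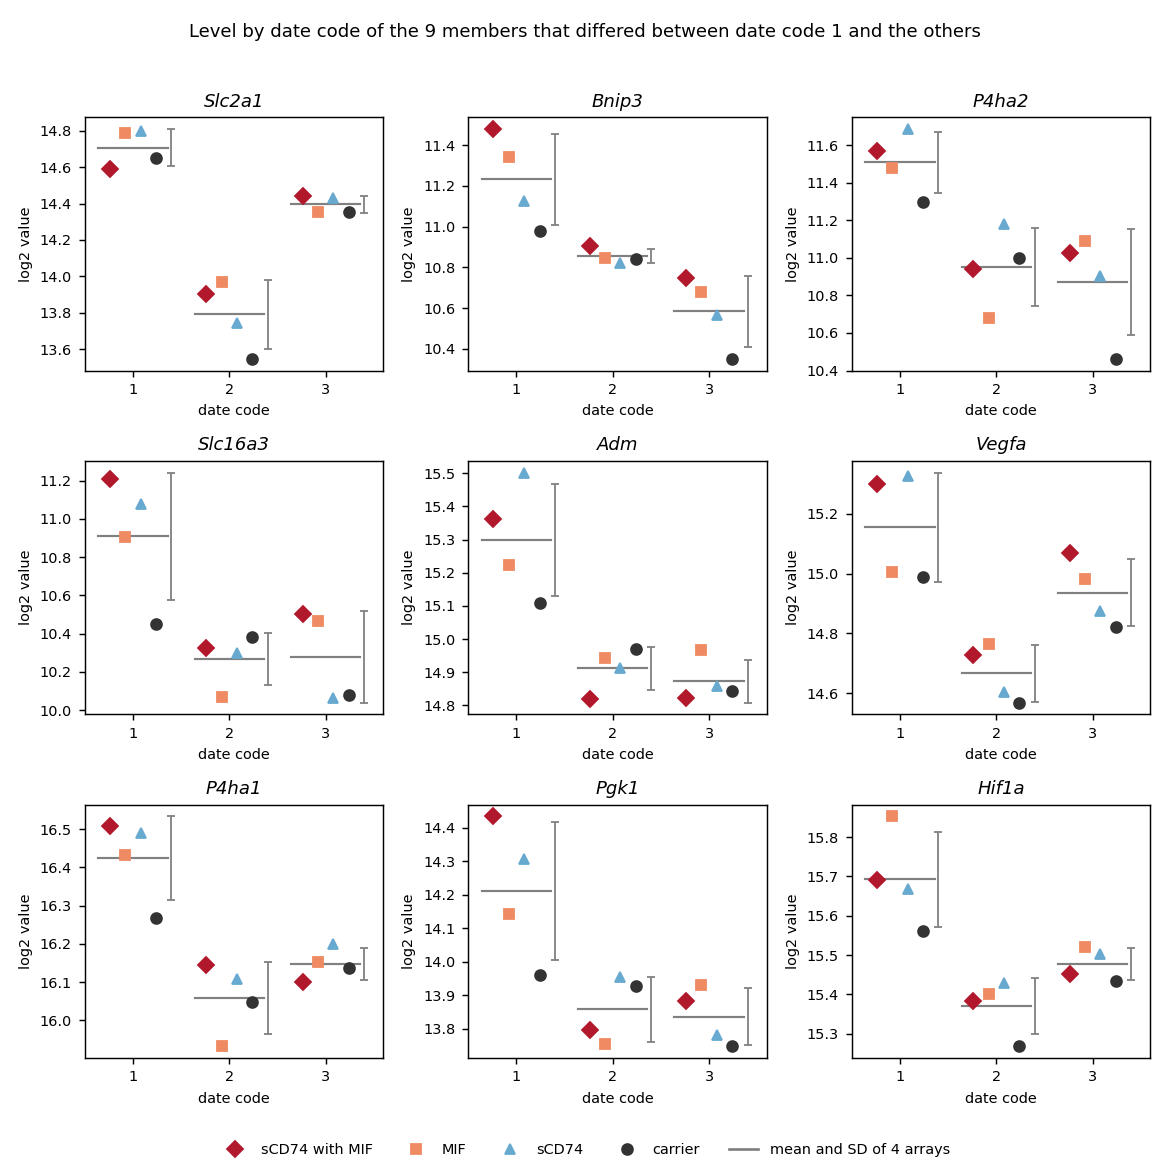
Level in every array (y axis, log2 value) by date code (x axis) for the 9 members that differed between date code 1 and the others, with the mean and SD of the 4 arrays of a date code. Slc2a1 sits between 14.59 and 14.80 in date code 1, between 13.55 and 13.97 in date code 2 and between 14.35 and 14.44 in date code 3.

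Of the remaining 11 HIF pathway genes, 7 lay above 0 in this comparison and 4 below. Pdk1, at +0.35 ± 0.11, was just outside the threshold (adjusted p = 0.055 in limma), and Egln1, the main HIF prolyl hydroxylase, stood at +0.20 ± 0.08. Egln3 and Car9 stood at +0.15 ± 0.11 and +0.15 ± 0.12, and Ankrd37 and Ndrg1, a differentiation and stress gene, at +0.21 ± 0.11 and +0.29 ± 0.15. Mxi1 and Bnip3l were near 0, at +0.01 and -0.06. Pfkfb3 and Pfkfb4, both of which set the level of fructose 2,6-bisphosphate, stood at -0.11 ± 0.09 and -0.11 ± 0.12.

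Pgk1, phosphoglycerate kinase, which yields the first ATP of glycolysis, read 14.43, 14.14, 14.31 and 13.96 in date code 1, against 13.80, 13.75, 13.95 and 13.93 in date code 2 and 13.88, 13.93, 13.78 and 13.75 in date code 3. All arrays of date code 1 lay above all others, with the carrier array only just so, and the difference was +0.36 ± 0.10 (adjusted p = 0.023, limma). That call was lost without any 1 of the 3 protein-treated arrays of date code 1, at an adjusted p of up to 0.116. Hk1 stood at +0.27 ± 0.09, just outside the threshold (adjusted p = 0.0578, limma).

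The other glycolytic enzymes spread on both sides of 0. Tpi1, Gapdh, Pfkp (the platelet-type phosphofructokinase) and Ldha stood at +0.11, +0.11, +0.09 and +0.04. Ldhb, Pfkl (the liver-type phosphofructokinase) and Hk2 stood at +0.03, +0.01 and -0.06. Pkm, Aldoa, Pgam1, Pfkm and Aldoc stood at -0.13, -0.14, -0.17, -0.21 and -0.25, with SEs between 0.09 and 0.14 over these 12 enzymes. None was called.

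**Figure D4:**
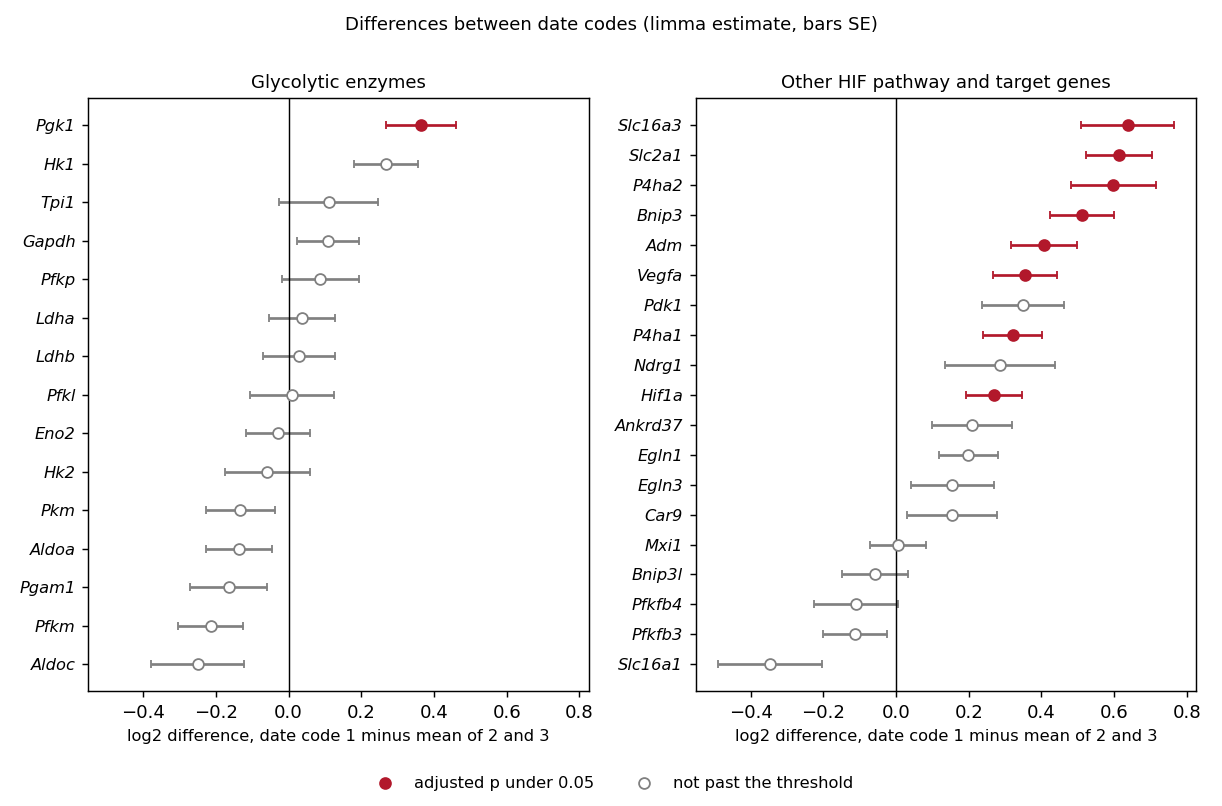
Difference of date code 1 from the mean of date codes 2 and 3 (x axis, log2, limma estimate with SE bars) for each glycolytic enzyme and each other HIF pathway gene, filled where the adjusted p is under 0.05. Called HIF pathway genes run from +0.27 (Hif1a) to +0.64 (Slc16a3), while glycolytic enzymes lie on both sides of 0 with Pgk1 (+0.36) alone called.

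Markers of other cell types moved with date code. The counts here are of markers called in limma, against 7.03% of all genes called higher and 9.39% lower. Among the 11290 genes above the negative control level, 1052 were called higher and 1711 lower. All 13 macrophage markers were lower in date code 1 (median -1.02), with a mean level over the list of 12.24 to 12.59 in date code 1, against 13.46 to 13.76 in date code 2 and 12.99 to 13.37 in date code 3. Of 10 endothelial markers 7 were higher and 1 lower (median +1.09), at 10.48 to 10.57 in date code 1, against 8.95 to 9.08 in date code 2 and 9.39 to 9.70 in date code 3. Cardiomyocyte markers were higher for 5 of 10 (median +0.34), at 9.58 to 9.83 in date code 1, against 9.79 to 9.90 in date code 2 and 8.36 to 8.42 in date code 3. Fibroblast markers were higher for 2 of 9, Tagln and Acta2 (median +0.19), at 14.68 to 14.95, against 14.56 to 14.65 and 14.61 to 14.68 in date codes 2 and 3. In such bulk samples fewer cells of a type and less RNA per cell cannot be told apart, and the part of these markers in the date code differences of the HIF pathway genes was not tested.

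Between date codes 3 and 2, Slc2a1 was the sole member called, with 1 of 19 other HIF pathway genes higher, 0 lower, and 0 of 15 glycolytic enzymes in either direction. Over all genes 0.441% were called higher and 0.708% lower, 1.15% in either direction. Slc2a1 was higher in date code 3 by +0.60 ± 0.10 (adjusted p = 0.0191, limma), with differences of +0.54, +0.38, +0.69 and +0.81 for both proteins, MIF, sCD74 and carrier. The call was lost without any 1 of 5 arrays (co-treated replicate 3, sCD74 replicates 2 and 3 and carrier replicates 2 and 3), with an adjusted p between 0.0623 and 0.103, at a difference of 0.54 to 0.60. Macrophage markers were lower in date code 3 for 2 of 13, cardiomyocyte markers lower for 7 of 10 and endothelial markers higher for 4 of 10, and their part in this difference was not tested.

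Other members showed no call in that comparison. Ndrg1 read 9.06, 9.60, 8.63 and 9.16 in date code 3, against 9.68, 9.62, 9.63 and 9.57 in date code 2, a difference of -0.51 ± 0.17 (adjusted p = 0.195, limma). The sCD74 array of date code 3 was the lowest, and its MIF array lay among those of date code 2. Bnip3 stood at -0.27 ± 0.10 and Vegfa at +0.27 ± 0.10, of opposite sign although both were higher in date code 1. Ldhb read 7.37, 7.42, 7.36 and 7.13 in date code 3, all under the negative control level, against 7.63, 7.70, 7.89 and 7.92 in date code 2 (adjusted p = 0.0766, limma). In date code 1 it read 7.35, 7.55, 7.82 and 7.60. Pfkm and Aldoc stood at -0.31 ± 0.10 and -0.30 ± 0.15, neither called.

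Genes beside these in the same metabolism were read from further lists. Of 27 further HIF targets, 5 were higher and 4 lower in date code 1. The higher ones were Gys1, a glycogen synthase (+0.52 ± 0.11), Ak4, a mitochondrial adenylate kinase (+0.71 ± 0.15), Ero1a, an oxidase of protein folding (+0.38 ± 0.09), and Lox and Plod2, which modify collagen for cross-linking (+0.35 ± 0.08 and +0.31 ± 0.09). The lower ones were the repressor Bhlhe41 (-0.95 ± 0.10), Nampt of NAD salvage (-0.68 ± 0.11), the haem oxygenase Hmox1 (-0.48 ± 0.09) and Plod1, a further lysyl hydroxylase (-0.43 ± 0.11). The 4 of smallest p were Bhlhe41, Nampt, Hmox1 and Gys1, and the others are named because they were called. The HIF targets outside the member list thus moved in both directions, and 9 of 27 called stands against 16.4% of all genes. Of the 11290 genes above the negative control level a larger share was called, 1052 higher and 1711 lower.

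Of 10 HIF pathway components, Cited2, which competes with HIF-1α for its coactivator, was higher (+0.44 ± 0.10) and the prolyl hydroxylase Egln2 lower (-0.48 ± 0.10). Of 5 measured enzymes of the pentose phosphate pathway, a branch of glucose metabolism that makes NADPH, 3 were lower in date code 1 and 0 higher, namely Taldo1 (-0.59 ± 0.10), Pgd (-0.47 ± 0.10) and Pgls (-0.32 ± 0.09). Of 26 genes of pyruvate entry and the citrate cycle, 5 were lower, among them Idh3b (-0.45 ± 0.08) and the succinate dehydrogenase subunits Sdhb (-0.44 ± 0.09) and Sdha (-0.35 ± 0.08), and 1 was higher, the kinase Pdk4 (+0.49 ± 0.09). Among 14 other isoenzymes and transporters 2 were lower, the lactate transporter Slc16a7 (-1.36 ± 0.13) and Hk3, a hexokinase of myeloid cells (-0.31 ± 0.08). The counts of 2 of 10, 3 of 5, 6 of 26 and 2 of 14 stand against 16.4% of all genes called in either direction (7.03% higher, 9.39% lower), and most lie near that share. The share was larger among genes above the negative control level, as given above. Macrophage markers were lower in the same arrays, as given above, and their part in these differences was not tested.

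In date code 3 against date code 2, Ddit4, a stress-induced inhibitor of mTORC1, was higher (+0.67 ± 0.13, adjusted p = 0.0273, limma) and Eno3, the muscle enolase, was lower (adjusted p = 0.00284, limma), at 7.42, 7.21, 7.55 and 7.45 in date code 3 against 8.17, 7.97, 8.28 and 8.05 in date code 2. In date code 3 all Eno3 values but that with sCD74 alone lay under the negative control level. The value with sCD74 alone lay under the negative control median of its own array, 7.90. Cardiomyocyte markers were lower in the same comparison, as given above, and their part in the Eno3 difference was not tested. None of these lists had a called gene in any comparison of treatments. With both proteins, Angptl4, a lipase inhibitor and HIF target, had the smallest p of the further HIF targets (+0.55 ± 0.22, adjusted p = 0.999 in limma). Of the pyruvate entry and citrate cycle genes, 22 of 26 lay above carrier with both proteins, with Pdhb of pyruvate dehydrogenase at +0.34 ± 0.15. The shares above 0 were 50.3% of all genes and 55.8% of genes above the negative control level. The median over these 26 genes was +0.28, -0.005 and +0.08 in date codes 1, 2 and 3. It was thus largest in date code 1, whose carrier array had the second smallest control gap.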

How the data were processed

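Expression was measured on 12 arrays from 150 ng of total RNA each. The deposited log2 values were made by the authors before deposit, and RMA, Transcriptome Analysis Console and Affymetrix Expression Console are listed, per the submitters' processing notes, with no version or order given. Values reach 18.4, and 231 to 251 per array exceed 16, which the sources used here do not account for, so the sizes of differences hold on the deposited scale only. No genome build of the array annotation is given in the labels. Of 28846 probe sets, 6640 were controls, and 19572 of the rest had 1 gene symbol, giving 19505 genes.

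The means of the 4 groups were estimated by lmFit and eBayes of limma (version 3.58.1, under R 4.3.3), with Benjamini-Hochberg adjustment over all genes within a contrast and a threshold of 0.05. The SEs of differences between treatments come from this fit without the block, so they include the spread between date codes. Date codes were compared in an additive fit of group and replicate number. The code was tested on simulated data. Pairing by replicate number comes from the shared code in the titles: deviations from the group means of same-numbered arrays correlated at 0.097 to 0.647, with 17 of 18 pairs above 0.1, and those of other arrays at -0.544 to 0.175. Since deviations cancel out within a group, the lower values of other arrays follow from the higher ones and are no separate evidence of pairing. Values in every array are given for a fixed set of genes and, per contrast, for the 3 enzymes and 3 other HIF pathway genes of smallest p, and of each other list up to 4 genes are named. The members and lists were chosen with earlier results of these data known. Alternatives were median centring, a further quantile normalization, trend with robust variance, the block, other probe set rules, genes above the negative control level and leaving out arrays. Leaving out the 2 arrays of smallest control gap was chosen after seeing the data. Array number limits the precision.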

Additional observations from a re-analysis of the deposited data

Results flagged for a closer look

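For Hif1a the effect of sCD74 had opposite signs with and without MIF on all arrays. With MIF present, the sCD74 array differed from its date code's array without sCD74 by -0.16, -0.02 and -0.07 (mean -0.08), and without MIF by +0.11, +0.16 and +0.07 (mean +0.11). The interaction of -0.1965 on the log2 scale was not significant in limma (adjusted p = 1), and 561 of 19505 genes (2.88%) showed such opposite signs.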

How the results depend on the processing

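No called difference changed sign under the alternatives, but 13 of 364 list medians and 403 of 5990 values of members that were not called did. Of the values of single genes 6131 kept their side of the threshold, 29 lost a call and 20 gained one. Under the replicate block the MIF main effect had 1 gene called. Under the block with trend and robust variance it had 3, and 6 genes were called with both proteins and 1 with MIF alone, of which 0 were members. Leaving out arrays moved the MIF main effect between 0 and 1. In date code 1, the glycolytic enzymes called were 2 under median centring, further quantile normalization, trend with robust variance and the restriction to genes above the negative control level, the second being Hk1. On leaving out 1 array they ranged from 0 to 2, the other HIF pathway genes from 4 to 10 and all genes from 2079 to 3063, with 2049 without the 2 arrays of smallest control gap. In date code 3 against 2, all genes called were 734 with trend and robust variance, 540 among genes above the negative control level (1 glycolytic enzyme, Ldhb), 59 to 227 on leaving out 1 array and 65 without the 2 arrays of smallest control gap. The other HIF pathway genes called there ranged from 0 to 2, and were 0 without those 2 arrays. Pdk1 was called in date code 1 under 7 alternatives. The cause of these moves was not tested. The 3 arrays per group limit what can be called, and genes near the negative control level, such as Eno2, Ldhb and Aldoc, have little signal over background.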
